A study of Pinellia ternata with 12 samples.

Results

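The miR170 and miR171 family was described in leaves of *Pinellia ternata*, a medicinal herb of the arum family, with and without heat. Members were taken by name. They were the rows of the miRNA table called miR170 or miR171 after the species prefix, followed by a letter, a hyphen or nothing, which gave 41 of 1597 miRNA names. The plants were wild type seedlings raised from tubers at 25 ℃. The control group (C, day 0, 0 h of heat) had 3 small RNA libraries, and the heat group (G, day 1, 24 h at 40 ℃) had 3. No unheated day 1 group is listed, so heat and the day of sampling cannot be told apart. RNA-seq of the same design, also 3 libraries against 3, gave the levels of predicted target unigenes, which are gene-level clusters of assembled transcripts. The treatment tag of the labels reads heat-treated for every sample, controls included, so the groups were taken from the sample titles. Replicates were biological according to the study's methods, with no further word on which plants they came from. All libraries came from whole leaf tissue, in which fewer cells of a type and less RNA per cell cannot be told apart, and the leaf label was not checked against marker genes here.

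Plant microRNAs are short RNAs that guide Argonaute proteins to mRNAs with which they pair along most of their length, which usually leads to cleavage of the mRNA. The 3p strand of miR171, and of the near-identical miR170, is known in Arabidopsis and other plants for cleaving mRNAs of GRAS transcription factors of the HAIRY MERISTEM or SCARECROW-LIKE group, which act in meristem maintenance and in the control of chlorophyll synthesis. The 5p strand is its partner in the duplex cut from the hairpin precursor, and in most miRNA families the partner strand is the less stable one.

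The names belong to entries of known miRNAs in 17 other plant species, since the reads were matched to a catalogue of such entries and not to a genome of the plant. The prefix therefore gives the species of the entry (osa for rice, ctr for trifoliate orange, stu for potato, vvi for grape, ath for Arabidopsis, ppe for peach, bna for rapeseed, gma for soybean, mtr for barrel medic, zma for maize) and not a gene of *P. ternata*. All 41 sequences were distinct, 34 of them were 21 bases long, and the others fell between 20 and 23 bases. By arm, 12 names were 5p and 29 were 3p. Names ending in -5p were placed in the 5p arm. All names without an arm suffix held the letters GAGCCG (or, in some, GAGUCG, or GAACCG) and were placed in the 3p arm. The 41 names held 18 different seeds (bases 2 to 8 from the 5′ end). In plants the seed is only part of the pairing and serves here to group the names.

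The 13 sequences below belong to members with at least 500 reads or past the test thresholds given further down, except zma-miR171j-5p, which had 4 reads. They are as listed in the study's table of known miRNAs, written 5′ to 3′ with the seed in capitals. The first set shows 3p sequences with the seed UGAGCCG, which 10 names shared, so that their near identity can be seen.
ctr-miR171: uUGAGCCGcgucaauaucucc
stu-miR171b-3p: uUGAGCCGcgucaauaucucu
gma-miR171m: uUGAGCCGcgucaauaucuca
ath-miR171b-3p: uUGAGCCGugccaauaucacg

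The second set shows 3p sequences with the seed GAUUGAG, which 12 names shared, and 2 neighbours that differ from it inside the seed. They start 3 bases earlier on the same strand than the first set, so that the letters UGAGCCG or their variant lie further in.
osa-miR171b: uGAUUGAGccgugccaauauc
mtr-miR171a: uGAUUGAGucgugccaauauc
bna-miR171g: uGAUUGAGccgcgccaauaucu
vvi-miR171h: uGGUUGAGccgcgccaauauc
ppe-miR171e: uUAUUGAAccggaccaauauc

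The third set shows the 5p sequences, which include the most abundant member of the family and a sequence that differs from it by 1 base.
osa-miR171d-5p: uGUUGGCCcggcucacucaga
osa-miR171e-5p: uGUUGGCUcggcucacucaga
ath-miR170-5p: uAUUGGCCugguucacucaga
ppe-miR171d-5p: uGUGAUAUugguucgguucaua

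Levels are in RPM (reads-per-million values), each a share of the reads that the study assigned to any listed miRNA. Whole reads were recovered from these values. The libraries held 871814 to 2039055 such reads in the control group and 479324 to 1475482 in the heat group, so that 1 read was worth 0.490 RPM in control 2, the deepest library, and 2.09 RPM in heat 2, the shallowest. Over the 6 libraries 101377 of 6826955 reads belonged to the family. The 10 members with at least 500 reads held 97.6% of them, while 24 members had under 100 reads and 7 had under 10. 22 members were detected in all 6 libraries. Control 2 stood apart from the other libraries. Its mean correlation with them over all 1597 names was 0.715 (Pearson's r on log2(RPM + 1)), against 0.810 to 0.852 for the other 5. It held the highest value of 17 of the 41 members, and 37.4% of all names were highest there. Values are therefore given with and without it.

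The family as a whole was abundant and very uneven among replicates. Its summed level was 32347, 17846 and 9359 RPM in controls 1 to 3 and 17601, 4216 and 4518 RPM in heat 1 to 3. The heat mean was lower, at 8778 ± 7642 against 19851 ± 11624 RPM (SD, n = 3 each), a log2 ratio of the means of -1.18, or -1.25 without control 2. The groups overlapped, since heat 1 was above control 3. Without heat 1 the log2 ratio was -2.18, and without control 1 it was -0.63. Scaled by the trimmed mean of M values of edgeR (TMM) it was -0.68, and as a ratio of medians -1.98. Sums are given as descriptions without a test.

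The 5p strand carried most of the reads and varied most among replicates. The summed 5p level was 28006, 14204 and 5674 RPM in the controls and 15121, 1598 and 2575 RPM under heat. The log2 ratio of the means was -1.31, or -1.39 without control 2, and heat 1 lay above controls 2 and 3. Without heat 1 it was -2.94, without heat 2 -0.85, without control 1 -0.63, with TMM scaling -0.72 and as a ratio of medians -2.46. 5p reads made up 86.6% of the family's reads in control 1 (95% Wilson interval 86.2 to 87.0), 79.6% in control 2 and 60.6% in control 3. Under heat the share was 85.9%, 37.9% (interval 35.8 to 40.0) and 57.0%, so that heat 2 alone had more 3p than 5p reads. Per 3p read there were 6.45, 3.90 and 1.54 5p reads in the controls and 6.10, 0.610 and 1.33 under heat. The strand known as the partner was thus the more frequent one in 5 of the 6 libraries, and its share did not separate the groups. These intervals cover counting error only, because the reads carry no molecular identifiers.

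The 3p strand, the one known to guide cleavage, was much steadier and lower under heat. Its summed level was 4341, 3642 and 3684 RPM in the controls and 2480, 2618 and 1943 RPM under heat. The mean was 3889 ± 392 RPM in the controls and 2347 ± 357 RPM under heat (SD, n = 3), 1.66 times higher in the controls, with a log2 ratio of -0.73, or -0.77 without control 2. The groups did not overlap on this scale, nor when scaled to all clean reads, where the log2 ratio was -0.75. After TMM scaling they did overlap, at 3707, 3233 and 4091 against 3637, 2248 and 1833, with a log2 ratio of -0.52. The separation of the 3p sums therefore depended on the scaling, and heat 1 was the library that joined the controls.

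**Figure D1:**
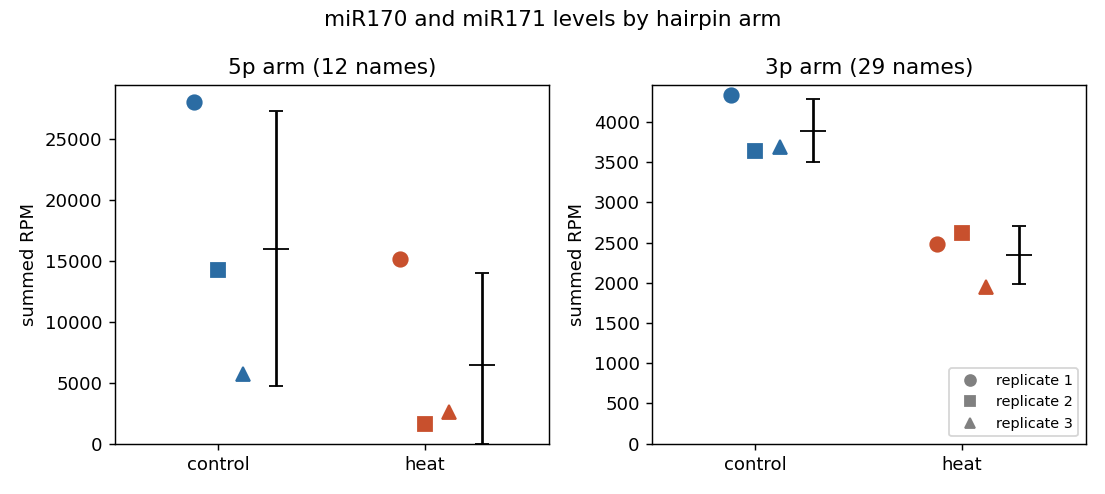
Summed level of the 12 5p names and of the 29 3p names in RPM on a linear axis, with 1 point per library, and the mean and SD of the 3 libraries of each group as black bars, the lower bar cut at 0 for the 5p names under heat. The 5p sums ran from 1598 to 28006 RPM with overlapping groups, and the 3p sums of 3642 to 4341 RPM in the controls lay above the 1943 to 2618 RPM under heat, a gap that TMM scaling removed.

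1 entry carried the 5p strand. osa-miR171d-5p had 76594 of the family's 101377 reads, with 27842, 13017 and 5326 RPM in the controls and 14776, 1552 and 2450.0 RPM under heat. Control 1 and heat 1 were the highest libraries, and both groups spanned more than a 5-fold range. Its log2 fold change on log2(RPM + 1) was -1.70 ± 0.97 (SE; limma, unadjusted p = 0.115), which missed the threshold and passed it without heat 1 (-2.67, unadjusted p = 0.0178). Without this name the rest of the family summed to 4504, 4829 and 4033 RPM in the controls and 2825, 2664 and 2068 RPM under heat. Those groups did not overlap (log2 ratio -0.82), nor when scaled to clean reads, but they did with TMM scaling, where heat 1 was above control 1 (log2 ratio -0.59).

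A sequence that differs from osa-miR171d-5p by a single base followed another order of libraries. osa-miR171e-5p, whose substitution C8U lies in the seed (positions counted from 1 at the 5′ end, the base of osa-miR171d-5p first), had 47.6, 20.1 and 321 RPM in the controls and 286, 6.26 and 72.5 RPM under heat. As a share of osa-miR171d-5p it was 0.171%, 0.154% and 6.03% in the controls and 1.94%, 0.403% and 2.96% under heat. Control 3 and heat 1 were high, and the groups overlapped (limma, log2 fold change -0.37 ± 1.42, unadjusted p = 0.801, with a sign that turned under other settings). How many mismatches were allowed when reads were assigned to names is not given in the sources used here, so a division of reads between such near-identical names is uncertain.

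The other 5p names of at least 500 reads were set by 1 library. ath-miR170-5p, the Arabidopsis miR170 partner strand, differs from osa-miR171d-5p by G2A, C9U and C12U, and 903 of its 911 reads were in control 2. Its level was 5.41, 443 and 0 RPM in the controls and 1.93, 0 and 0.678 RPM under heat. The log2 fold change was -3.06 ± 1.94 (limma, unadjusted p = 0.152) and became -0.58 without control 2. ppe-miR171d-5p, which has the seed GUGAUAU, had 31.4, 613 and 4.59 RPM in the controls and 5.78, 14.6 and 13.6 RPM under heat. Its log2 fold change of -2.06 ± 1.496 (limma, unadjusted p = 0.205) became -0.22 without control 2. Outside that library both were low in either group.

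Among the 3p names, osa-miR171b was the main entry with the seed GAUUGAG. It had 1432, 1055 and 688 RPM in the controls and 456, 330 and 633 RPM under heat. Each heat library was below each control, also with TMM scaling but not when scaled to clean reads, where heat 3 was above control 3. The log2 fold change was -1.15 ± 0.51 (limma, unadjusted p = 0.0535), just short of the p threshold. It passed without control 3 (-1.43, unadjusted p = 0.0363) or heat 3 (-1.38, unadjusted p = 0.0463). The 12 names with this seed summed to 1562, 1567 and 804 RPM in the controls and 530, 463 and 755 RPM under heat, a log2 ratio of -1.17 without overlap, while scaled to clean reads heat 3 again lay above control 3.

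ctr-miR171 led the set with the seed UGAGCCG. Its level was 1516, 798 and 1823 RPM in the controls and 1313, 363 and 605 RPM under heat. Heat 1 lay above control 2, so the groups overlapped, and the log2 fold change of -0.98 ± 0.62 did not pass (limma, unadjusted p = 0.152) except without heat 1 (-1.47, unadjusted p = 0.0386). stu-miR171b-3p, which differs from ctr-miR171 by C21U, had 464, 272 and 507 RPM in the controls and 253, 165 and 165 RPM under heat. These groups did not overlap, except with TMM scaling, where heat 1 was above control 2. The log2 fold change was -1.07 ± 0.49 (limma, unadjusted p = 0.0599), and without control 2 the value passed the thresholds at -1.35 (limma, unadjusted p = 0.0111), as it did without heat 1 (-1.27, unadjusted p = 0.0353). The 10 names with this seed summed to 2109, 1187 and 2475 RPM in the controls and 1651, 584 and 842 RPM under heat, with overlap and a log2 ratio of -0.91.

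vvi-miR171h ran the other way in 1 heat library. It differs from osa-miR171b by A3G and U12C and had 520, 514 and 255 RPM in the controls and 162, 1521 and 304 RPM under heat. Heat 2 was the highest library and heat 1 the lowest, so the log2 fold change was 0.05 ± 0.82 (limma, unadjusted p = 0.957). In heat 2, the library of fewest reads, it made up 58.1% of all 3p reads (95% Wilson interval 55.3 to 60.8), against 6.53% to 15.6% in the other 5 libraries. In the same library ctr-miR171 had its lowest share, 13.9%, and osa-miR171b had 12.6%. The make-up of the 3p reads therefore differed from library to library, while their sum in RPM varied little within a group. On other scales the 3p sum varied more under heat. In heat 1 to 3 it was 3637, 2248 and 1833 with TMM scaling, and 163, 83.6 and 155 scaled to clean reads.

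**Figure D2:**
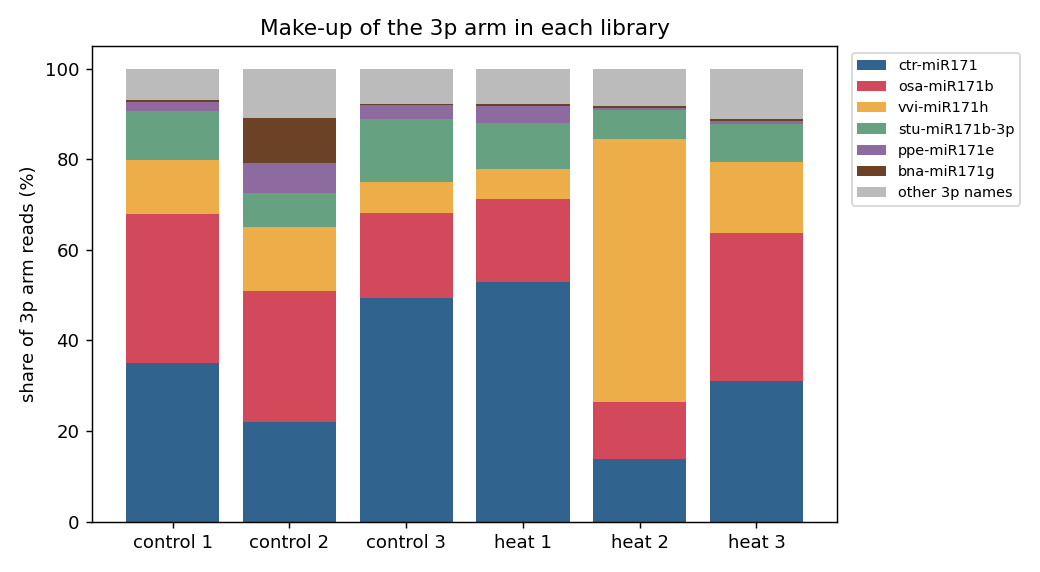
Share of each library's 3p reads taken by ctr-miR171, osa-miR171b, vvi-miR171h, stu-miR171b-3p, ppe-miR171e, bna-miR171g and the other 3p names, as stacked bars in percent from 0 to 100, 1 bar per library. vvi-miR171h took 58.1% in heat 2 and 6.53% to 15.6% elsewhere, while ctr-miR171 ranged from 13.9% to 52.9%.

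ppe-miR171e, an entry with the seed UAUUGAA, fell under heat at the unadjusted threshold. It had 84.4, 243 and 112 RPM in the controls and 93.5, 10.4 and 13.6 RPM under heat, a log2 fold change of -2.41 ± 0.88 (limma, unadjusted p = 0.0242, adjusted p = 0.490 over all 1597 names). Heat 1 was close to the controls and above control 1, and heat 2 and heat 3 were low. The call was lost without control 2 (unadjusted p = 0.133), control 3 (0.0533), heat 2 (0.0879) or heat 3 (0.0948). It was also lost with TMM scaling (limma, unadjusted p = 0.0582), after quantile normalization (0.0592), by edgeR (log2 fold change -1.38, unadjusted p = 0.248) and by DESeq2 (-1.36, unadjusted p = 0.220).

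bna-miR171g, which has the seed GAUUGAG, was again mostly a control 2 entry, with 739 of its 792 reads there. It had 19.5, 362 and 12.6 RPM in the controls and 8.67, 12.5 and 6.10 RPM under heat. All heat values were below all control values, although heat 2 and control 3 nearly met (limma, log2 fold change -2.26 ± 1.18, unadjusted p = 0.0914). Without control 2 the log2 fold change was -0.78.

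**Figure D3:**
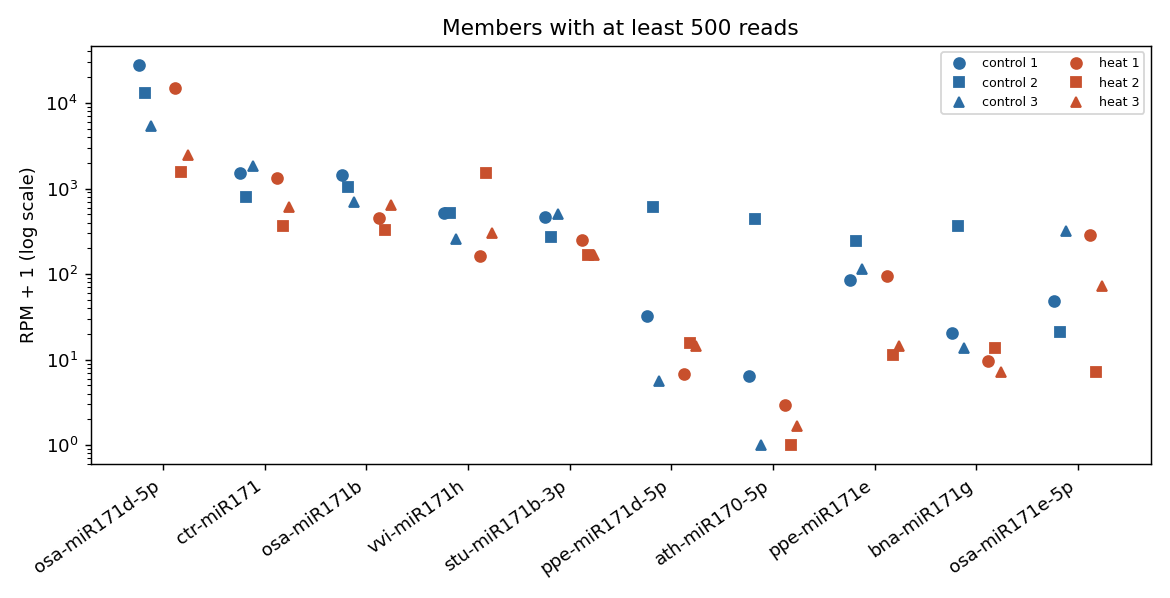
Level of the 10 members with at least 500 reads in each library, as RPM + 1 on a log axis so that values of 0 can be drawn, with controls and heat libraries in different colours and a marker for each replicate. Control 2 alone was high for ath-miR170-5p (443 RPM) and bna-miR171g (362 RPM), and heat 2 for vvi-miR171h (1521 RPM).

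Across all 41 names, 5 members passed the study's thresholds for miRNAs (a fold change of over 1 on the log2 scale with an unadjusted p below 0.05, by limma on log2(RPM + 1)) as lower under heat, 12.2% of them. Over all 1597 names 7.14% passed in that direction. In the fits made here 0 members passed as higher at those thresholds by limma, edgeR or DESeq2. Of all names 2.13% did by limma, 3.19% by edgeR and 3.76% by DESeq2. By limma 5 members in all had an unadjusted p under 0.05. The study's own calls, made with edgeR, are not listed here and can differ from these. No member reached an adjusted p of 0.05 by limma, edgeR or DESeq2 with all 6 libraries. 9 members (22%) had every heat library below every control, as did 9.89% of all names, and 0 members had every heat library above, as did 4.51% of all names. With TMM scaling 5 members (12.2%) had every heat library below, as did 7.01% of all names, and scaled to clean reads 5 (12.2%), as did 7.83% of all names. Leaving out 1 library at a time gave between 1 member lower (2.44%, against 3.94% of all names, without heat 2) and 10 (24.4%, against 10.7%, without control 3). Quantile normalization gave 0 members lower, against 2.63% of all names.

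Besides ppe-miR171e, the members that passed were low in reads. ath-miR171b-3p, an Arabidopsis 3p entry, had 37.9, 34.3 and 47.0 RPM in the controls and 22.2, 4.17 and 16.3 RPM under heat. Its log2 fold change was -1.67 ± 0.71 (limma, unadjusted p = 0.0469, adjusted p = 0.527). gma-miR171m, which differs from ctr-miR171 by C21A, had 29.2, 14.2 and 8.03 RPM in the controls and 0.964, 4.17 and 5.42 RPM under heat (limma, log2 fold change -1.998 ± 0.82, unadjusted p = 0.0397, adjusted p = 0.523). mtr-miR171a had 9.74, 15.2 and 6.88 RPM in the controls and 1.93, 4.17 and 2.03 RPM under heat (limma, log2 fold change -1.63 ± 0.71, unadjusted p = 0.0498, adjusted p = 0.527). In each of these 3 the groups did not overlap in RPM, but those of ath-miR171b-3p did with TMM scaling and those of gma-miR171m when scaled to clean reads. The last, zma-miR171j-5p, rested on 4 reads, 1, 2 and 1 in the controls and 0 in each heat library, where 3 reads over the heat group would be 1.00 RPM, so no fold is given. Most of these calls hung on single libraries, and of the 5 members edgeR called only gma-miR171m and mtr-miR171a, and DESeq2 only gma-miR171m. ath-miR171b-3p kept its call without heat 1 and lost it without any of the other 5 (unadjusted p up to 0.137 by limma), and mtr-miR171a kept its call without control 3 and lost it without any of the other 5 (up to 0.123). gma-miR171m lost it without control 1, control 2, heat 1 or heat 2 (up to 0.132), and zma-miR171j-5p without heat 2 or heat 3 (up to 0.0759).

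The other 27 members had at most 115 RPM in any library and at most 355 reads in all, and 19 of them had a lower mean under heat. zma-miR171m-5p and mtr-miR171c, named after their values were seen, were among those with a higher one. zma-miR171m-5p had 13.0, 4.41 and 5.74 RPM in the controls and 18.3, 10.4 and 24.4 RPM under heat (limma, log2 fold change 1.15 ± 0.71, unadjusted p = 0.143). mtr-miR171c, which differs from osa-miR171b by C21U, had 22.7, 22.1 and 51.6 RPM in the controls and 28.9, 37.6 and 80.7 RPM under heat (limma, log2 fold change 0.57 ± 0.64, unadjusted p = 0.402). Neither passed here, and the groups overlapped in both. By edgeR zma-miR171m-5p had a log2 fold change of 1.49 (unadjusted p = 0.0636). The study predicted targets for miRNAs that it had called, and this name is among them.

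Without control 2 the list was different. 2 of 41 members (4.88%) were then lower by limma, stu-miR171b-3p and zma-miR171j-5p, against 4.45% of all names. zma-miR171j-5p then had an adjusted p of 0.0414 by limma, although it rested on 2 reads. 1 member, zma-miR171i-5p, was higher (limma, log2 fold change 1.31, unadjusted p = 0.0481), against 1.94% of all names. It then rested on 1 and 0 reads in controls 1 and 3 and on 2, 1 and 6 under heat. Of its 74 reads 64 were in control 2, and with all 6 libraries its log2 fold change was -0.19 (limma, unadjusted p = 0.884). By edgeR on the recovered reads of all 6 libraries 6 members (14.6%) were lower at the same thresholds, against 9.2% of all names. They were ath-miR170-5p, bna-miR171g, gma-miR171m, mtr-miR171a, ppe-miR171d-5p and zma-miR171a-5p, of which ath-miR170-5p, bna-miR171g, ppe-miR171d-5p and zma-miR171a-5p had over 5 times as many RPM in control 2 as in any other library. DESeq2 called 3 members (7.32%) lower, gma-miR171m, ppe-miR171d-5p and zma-miR171a-5p, against 5.76% of all names. It gave no p-value for ath-miR170-5p and bna-miR171g, which count as not called. Without control 2, edgeR called 1 member of 39 tested lower (2.56%), gma-miR171m, and 0 higher, against 4.38% and 3.35% of the names tested. 39 members were detected in a library other than control 2. Of these, 8 (20.5%) had over 5 times the level of the next library in control 2, against 11.7% of all names so detected. The values without control 2 do not measure its part alone, because fits without another library also changed the calls. Without control 1 limma called 2 members lower (5.89% of all names), and without heat 2 it called 1 (3.94%). ath-miR171b-3p and gma-miR171m lost their limma calls without control 2, with log2 fold changes of -1.76 and -2.04. The cause of the difference of control 2 was not tested.

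The direction over the family was mostly down, as it was over all names with all 6 libraries. The log2 fold change was below 0 for 30 of the 41 members and for 66% of all names. Without control 2 this held for 28 members and 53.8% of all names, and after quantile normalization for 27 members and 48.6%. The median log2 fold change was -0.98 over the members and -0.37 over all names, and without control 2 it was -0.53 and -0.12. After quantile normalization, which centres the names near 0, the medians were -0.27 and 0.02. The members' median lay 0.61 below that of all names with all 6 libraries, and over the alternatives the gap ran from 0.10 (pseudocount of 10 RPM) to 0.83 (without heat 1) on the log2 scale.

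**Figure D4:**
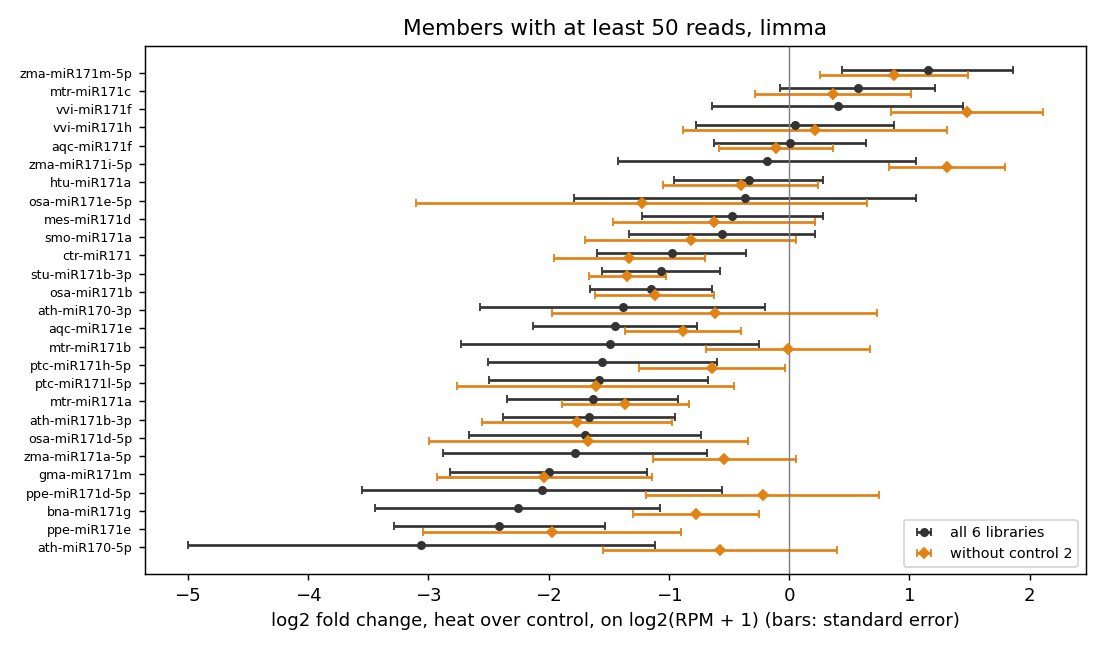
Log2 fold change of heat over control for the 27 members with at least 50 reads, from limma on log2(RPM + 1), with bars for 1 SE, for all 6 libraries and without control 2. ath-miR170-5p moved from -3.06 to -0.58 and ppe-miR171d-5p from -2.06 to -0.22 when control 2 was left out, while osa-miR171b and stu-miR171b-3p stayed below 0.

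The GRAS mRNAs themselves could not be followed by name. The part of the study's target table at hand, predicted by psRNATarget for miRNAs that the study had called on these same libraries, listed 23 unigenes for 5 members, and 0 of them was annotated as a GRAS factor in the sources used here. ath-miR170-5p and gma-miR171m had 8 each, bna-miR171g 6, ppe-miR171d-5p 4 and zma-miR171m-5p 1. Only 9 of the 23 had a mean of at least 1 TPM (transcripts-per-million values) and were tested. 0 of these 9 passed in either direction by limma, for which a fold change of over 1 on the log2 scale and an adjusted p below 0.05 were required, and 1 had an unadjusted p under 0.05. Of all 68978 unigenes tested 6% passed as higher and 4.05% as lower, 4142 and 2793, a balance that turned to 2928 and 3906 after rescaling by the median ratio. Leaving out 1 library gave 1472 (without control 3) to 6235 (without heat 1) higher, and 0 of the targets passed in any of these fits. The study reports the total reads of each RNA-seq library, but the reads behind each TPM value were not recovered here.

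4 unigenes were predicted for both gma-miR171m and bna-miR171g. TRINITY_DN64172_c0_g3, listed by the study under the terms circadian rhythm, sequence-specific DNA binding and cell division among others, had 11.5, 12.9 and 14.9 TPM in the controls and 10.1, 5.66 and 8.32 TPM under heat. Its groups did not overlap, with a log2 fold change on log2(TPM + 1) of -0.67 ± 0.27 (limma, unadjusted p = 0.0305, adjusted p = 0.134), and it did not pass. TRINITY_DN70152_c0_g2, predicted for bna-miR171g alone and listed under the same terms, had 4.44, 3.96 and 3.49 TPM in the controls and 4.46, 1.90 and 2.12 TPM under heat. Its groups overlapped, since heat 1 was at the level of control 1 (limma, log2 fold change -0.43 ± 0.31, adjusted p = 0.394). TRINITY_DN71125_c1_g3, with no term at hand, had 22.9, 18.05 and 28.5 TPM in the controls and 13.4, 19.3 and 16.7 TPM under heat (limma, log2 fold change -0.46 ± 0.26, adjusted p = 0.278). TRINITY_DN64172_c0_g3 and TRINITY_DN71125_c1_g3 had lower means under heat, as had the 2 miRNA entries for which they were predicted. The other 2, TRINITY_DN47447_c2_g1 and TRINITY_DN51740_c0_g4, had means of 0.954 and 0.671 TPM over the 6 libraries and were not tested. TRINITY_DN70152_c0_g2 was named after its values were seen. The median log2 fold change of the 9 tested targets was -0.16, against 0.17 over all unigenes. Without control 2 these medians were -0.04 and 0.17, and after rescaling by the median ratio -0.32 and 0.01. With no filter on TPM the 23 targets had a median of 0.05, against 0.12.

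**Figure D5:**
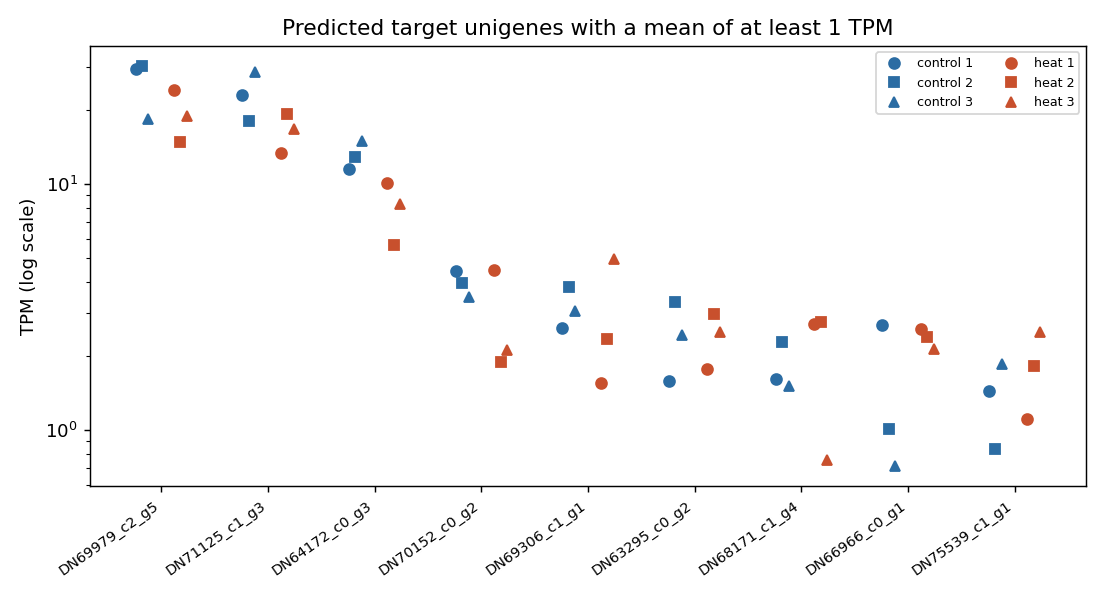
Level of the 9 tested predicted target unigenes in each RNA-seq library, in TPM on a log axis, with controls and heat libraries in different colours. TRINITY_DN64172_c0_g3 lay at 11.5 to 14.9 TPM in the controls and 5.66 to 10.1 TPM under heat, and 0 of the 9 passed the limma thresholds.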

How the data were processed

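The authors made small RNA libraries, removed adapters with cutadapt, kept reads by length, used trimmomatic to trim low quality ends, discarded reads that BLASTN placed in Rfam, matched the rest to known plant miRNAs and deposited RPM values. For RNA-seq the authors assembled unigenes with Trinity, estimated abundance with Salmon and deposited TPM values. The versions of cutadapt, trimmomatic, Trinity and Salmon and the mismatch rule for known miRNAs are not given in the sources used here.

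To recover whole reads, the RPM of a library were divided by the RPM that 1 read is worth in it, and all 9582 values were whole within 0.01 reads. limma 3.58.1 in R 4.3.3 (eBayes with trend) was run on log2(RPM + 1) over all 1597 names and on log2(TPM + 1) over unigenes averaging 1 TPM or more, with Benjamini-Hochberg adjustment over each whole table. edgeR 4.0.16 (quasi-likelihood) and DESeq2 1.42.0 on the recovered reads were alternatives, with other scalings, pseudocounts, a read filter, the replicate number as a block and fits without 1 library. The procedures were also run on simulated data with a fixed spread and no library standing apart. Such data cannot show how the tests behave with the uneven replicates seen here.

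Per-library values are given for members with at least 500 reads or past the limma thresholds, and for unigenes predicted for at least 2 members. Those of zma-miR171m-5p, mtr-miR171c, zma-miR171i-5p and TRINITY_DN70152_c0_g2 were added after they were seen. The members, lists and rules were chosen with earlier results of these data known, so nothing here is independent of them. The 3 libraries of a group limit the precision.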

Additional observations from a re-analysis of the deposited data

How the results depend on the processing

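Against 5 members called lower by limma (7.14% of all names), 2 were called with a pseudocount of 10 RPM (4.38% of all names), 3 after TMM scaling (5.39%), 2 scaled to clean reads (5.07%), 0 after quantile normalization (2.63%, and 0 members with an unadjusted p under 0.05) and 3 by DESeq2 (5.76%). Leaving out 1 library gave 1 to 10 members lower (10 without control 3, 7 without heat 1 and 1 without heat 2, against 10.7%, 7.14% and 3.94% of all names) and 0 to 1 higher, the 1 arising without control 2. edgeR without control 2, chosen after seeing the data, gave 1 (4.38% of the names tested). Of all names, 34 higher and 114 lower became 50 and 86 after TMM scaling and 77 and 42 after quantile normalization.

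The log2 ratio of the 5p sums ran from -2.94 (without heat 1) to -0.63, that of the 3p sums from -0.81 to -0.61 when 1 library was left out and was -0.52 under TMM. osa-miR171e-5p turned from -0.37 to 0.36 (quantile), 0.25 (edgeR with TMM), 0.24 (edgeR with DESeq2 size factors), 0.24 (DESeq2), 0.74 (without control 3) and 1.07 (without heat 2), its lowest with 1 library left out being -1.58. vvi-miR171h turned from 0.05 to -0.020 (scaled to clean reads), -0.29 (without control 3) and -0.88 (without heat 2), its highest value with 1 library left out being 0.73. The cause was not tested.

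Samples share replicate numbers. Over all names, the deviations of same-numbered miRNA libraries from their group means had correlations of -0.07, 0.08 and -0.09. Those of unlike-numbered pairs ran from -0.13 to 0.19. Only 3 libraries per group were compared, so these values cannot decide whether same-numbered libraries were paired. With a replicate block 2 members (4.88%) were lower, osa-miR171d-5p and ppe-miR171e, against 6.07% of all names. Depth limits the 24 members with under 100 reads.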
